A study of Mus musculus with 6 samples.

Results

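The Ifi200 family, also called the PYHIN family, was followed in the transcriptomes of B cells that had been sorted from the colons of mice. Its 10 members here were the rows of the expression table with the symbols Ifi203, Ifi204, Ifi205, Ifi206, Ifi207, Ifi208, Ifi209, Ifi213, Mndal and Aim2, out of 20591 genes in all. These symbols were chosen with the values of lenvatinib and DMSO libraries known. The differences between the groups are therefore given for the members as a description, with no test. The mice had received lenvatinib, an oral inhibitor of the receptor tyrosine kinases for VEGF, FGF and related growth factors, or DMSO, a solvent given as the control, with 3 libraries in each group. The series title sets the comparison in a study of colitis and of B cells entering the gut. The sample labels give neither the strain, age or inflammatory state of the mice, nor the dose and length of treatment, nor the markers used for sorting. Libraries are labelled as biological replicates, but separate animals are not mentioned. The p-values below therefore judge group differences against the spread between these libraries, and that spread may be technical.

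PYHIN proteins carry an amino-terminal pyrin domain, a carboxy-terminal HIN domain, or both. The pyrin domain binds other pyrin domains and the HIN domain binds double-stranded DNA. Several members sense DNA in the cytosol or nucleus, others act on transcription in the nucleus, and most are induced by interferon. The best known is Aim2, which binds cytosolic DNA and assembles an inflammasome with the adaptor Pycard and the protease Casp1. In the RefSeq annotation the 10 members lie in 1 cluster on mouse chromosome 1, in the order Aim2, Ifi206, Ifi213, Ifi209, Ifi208, Ifi207, Ifi204, Mndal, Ifi203 and Ifi205. The PYHIN genes Ifi214, Ifi211 and Ifi202b lie among them.

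The promoters of most members share a short interferon element. The pattern of GAAA, any 2 bases and again GAAA, searched on both strands, is the core of the interferon-stimulated response element, to which proteins of the IRF family bind. RefSeq promoter windows of the build GRCm38.p6, which run from 250 bases before a gene's start to 50 bases after it, were at hand for 9 of the 10 members. Ifi204 had no window. Of these, 7 held the pattern, against 3.99 percent of 27025 genes with a window (3.44 percent of 32851 windows). The windows of Aim2 and Ifi209 did not hold it. In 13 of 23 other interferon-inducible genes with a window (56.5 percent) it was present as well. The authors' files use another build, GRCm39, so these coordinates refer to the reference sequence only.

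The stretches around the pattern are shown because genes with like stretches are set side by side in expression further on. Capitals mark the pattern, and Ifi214 and Ifi211 are PYHIN genes outside the 10.
Ifi213, chr1:173599320-173599361, minus strand: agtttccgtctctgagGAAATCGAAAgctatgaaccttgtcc
Ifi208, chr1:173673591-173673632, plus strand: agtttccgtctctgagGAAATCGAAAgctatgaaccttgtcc
Ifi206, chr1:173491333-173491374, minus strand: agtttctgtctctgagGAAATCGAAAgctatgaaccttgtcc
Ifi214, chr1:173536011-173536052, minus strand: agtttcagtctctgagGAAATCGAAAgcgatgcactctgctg
Ifi203, chr1:173942502-173942543, minus strand: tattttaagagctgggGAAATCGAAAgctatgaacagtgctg
Mndal, chr1:173880198-173880239, minus strand: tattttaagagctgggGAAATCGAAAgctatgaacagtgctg
Ifi207, chr1:173741825-173741866, minus strand: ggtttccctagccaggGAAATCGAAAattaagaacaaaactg
Ifi205, chr1:174031864-174031905, minus strand: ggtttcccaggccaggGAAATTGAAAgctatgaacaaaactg
Ifi211, chr1:173913058-173913099, minus strand: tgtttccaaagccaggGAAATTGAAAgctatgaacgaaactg

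Ifi209 carries nearly the same stretch as Ifi214, with 38 of 42 bases identical. Within the pattern it differs by G1T, counted from the first base of the pattern, with the base of Ifi214 first. Capitals mark the positions of the pattern that equal those of Ifi214.
Ifi209, chr1:173630764-173630805, plus strand: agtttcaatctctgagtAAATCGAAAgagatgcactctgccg

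The pattern began between 134 and 35 bases before the start of the gene, at −73 in Ifi213, at −58 in Ifi208 and at −40 in Ifi206. In Mndal it was at −36 and in Ifi203 at −35, in the second of 2 windows for Ifi203. A second match on the opposite strand lay in the other window of Mndal and, 23 bases after the start, in Ifi205. A match is a description of these letters and not evidence that a factor binds there.

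With the windows aligned in pairs, the genes fell into 4 groups with at least 80 percent identity over at least 150 aligned bases. Identity was taken over the aligned part of 2 windows only, which could be shorter than the whole window. Within the groups this part was shortest for Ifi205 with Ifi211 and for Ifi205 with Ifi207. Ifi206, Ifi208 and Ifi213 were 98.5 to 98.9 percent identical to each other, Ifi209 and Ifi214 95.7 percent, and Ifi203 and Mndal 94.3 percent. Ifi205, Ifi207 and Ifi211 were 86.6 to 93.5 percent identical. Aim2 joined no group, and Ifi204, without a window, was not aligned. The part of the Ifi213 window before the start, minus strand of chr1:173599273-173599522, is shown as the example with the largest difference in expression among the members.
Ifi213, upstream: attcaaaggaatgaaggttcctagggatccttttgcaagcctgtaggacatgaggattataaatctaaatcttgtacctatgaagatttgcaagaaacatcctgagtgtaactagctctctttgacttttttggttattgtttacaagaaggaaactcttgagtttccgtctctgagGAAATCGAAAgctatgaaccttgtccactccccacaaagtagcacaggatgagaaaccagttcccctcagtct

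Levels are given in scaled FPKM, that is, fragments per unit of gene length and of library depth as the authors deposited them, scaled by a library factor between 0.9916 and 1.009. Errors after ± are SDs (n = 3 libraries a group). Changes are differences of the mean log2(scaled FPKM + 1), lenvatinib minus DMSO, a scale that understates the change of genes at low level. Each library held between 26635279 and 31655500 reads in genes. The libraries carried the markers of B cells, with Cd79a at 802 ± 20.9 in lenvatinib and 1040 ± 21.6 in DMSO libraries, and replicates differed by more than counting noise.

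The summed level of the family stood lower in the lenvatinib libraries, and Mndal, Ifi209 and Ifi203 made up most of that sum. The summed level of the 10 members was 209, 196 and 213 in the lenvatinib libraries, against 321, 314 and 317 in the DMSO libraries. The groups did not overlap, and the lenvatinib mean was 64.8 percent of the DMSO mean. Fewer cells of a type and less RNA per cell cannot be told apart in such bulk values. The median log2 change of the 10 members was −0.52, where that of all 9937 tested genes was 0.01. By the limma fit over all tested genes 6 of the 10 members were past an adjusted p of 0.05 on the lower side and 0 on the higher side, where 8.21 percent of tested genes were called lower and 10.4 percent higher. The 6 were Ifi203, Ifi206, Ifi208, Ifi209, Ifi213 and Mndal, and the 4 that did not pass were Ifi204, Ifi205, Ifi207 and Aim2. The members were chosen on this contrast, so nothing is read from this count.

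**Figure D1:**
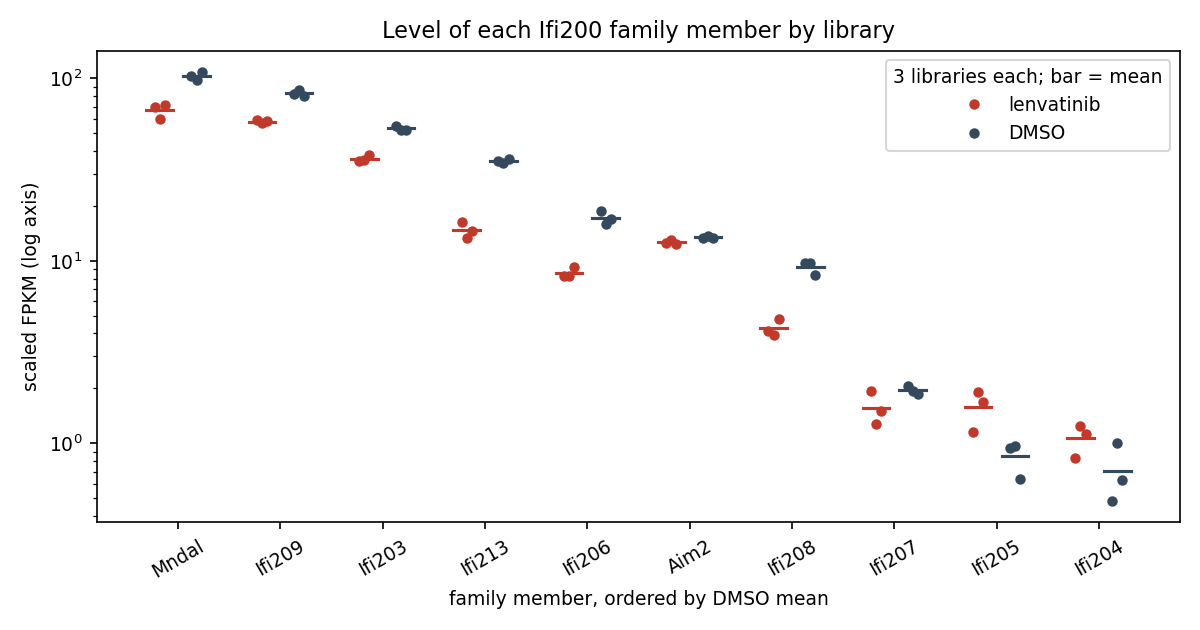
Scaled FPKM (log axis) of each member in the 3 lenvatinib libraries (red) and the 3 DMSO libraries (dark), ordered by the DMSO mean, with a bar at each group mean. Mndal, Ifi209, Ifi203, Ifi213, Ifi206 and Ifi208 stood lower in every lenvatinib library, Aim2 nearly coincided, and Ifi205 stood higher.

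Ifi213 and Ifi208 are listed in RefSeq with the older names Pydc4 and Pydc3, given to genes for pyrin domain proteins. Ifi213 stood at 16.3, 13.3 and 14.5 scaled FPKM in the lenvatinib libraries, against 35.4, 34.4 and 36.0 in the DMSO libraries. Its log2 change of −1.21 (SE 0.0697) was the largest among the members, and its lenvatinib mean was 41.6 percent of the DMSO mean. A log2 change of −1 or less was seen in 0.151 percent of tested genes. Ifi208 stood at 4.15, 3.91 and 4.78 in the lenvatinib libraries, against 9.74, 9.79 and 8.35 in the DMSO libraries, a log2 change of −0.96 (SE 0.0944). Every lenvatinib library of both genes lay below every DMSO library.

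The promoter window of Ifi206 is nearly identical to those of Ifi213 and Ifi208 over the aligned part. Ifi206 had 8.24, 8.31 and 9.25 scaled FPKM in the lenvatinib libraries, against 18.7, 15.9 and 16.9 in the DMSO libraries. Its log2 change was −0.92 (SE 0.0772), and the groups lay apart. The 3 genes of this promoter group thus had lenvatinib means of 41.6, 46.1 and 50.1 percent of the DMSO means for Ifi213, Ifi208 and Ifi206.

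Mndal, Ifi209 and Ifi203 were the most abundant members and together made up 78.0 to 78.7 percent of the family's summed level in the lenvatinib libraries, against 74.9 to 75.5 percent in the DMSO libraries. Mndal is named for its likeness to the human myeloid nuclear differentiation antigen. It had 69.4, 60.0 and 71.1 scaled FPKM in the lenvatinib libraries, against 103, 98.2 and 108 in the DMSO libraries, a log2 change of −0.62 (SE 0.0635). Ifi209, known by the older name Pyhin1, had 58.9, 56.6 and 58.4, against 82.3, 86.0 and 79.6 in the DMSO libraries, a log2 change of −0.50 (SE 0.04). Ifi203, an interferon-inducible nuclear protein, had 35.1, 35.8 and 38.1, against 54.9, 52.3 and 52.2 in the DMSO libraries, a log2 change of −0.54 (SE 0.0463). In all 3 genes the groups lay apart, and the lenvatinib means were 64.9, 70.2 and 68.4 percent of the DMSO means for Mndal, Ifi209 and Ifi203. A log2 change of −0.5 or less was seen in 1.23 percent of tested genes.

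Aim2, the inflammasome sensor, was at nearly the same level in both groups. It had 12.6, 13 and 12.4 scaled FPKM in the lenvatinib libraries, against 13.3, 13.7 and 13.3 in the DMSO libraries. The lenvatinib libraries lay just below the DMSO libraries, as they did in 18.2 percent of tested genes, and the log2 change was −0.07 (SE 0.0567). It was 0.17 with libraries scaled to the B cell markers, so its direction depends on the scaling.

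Ifi207, Ifi205 and Ifi204 stood near the minimum of 1 scaled FPKM that the filter on low values required in 3 libraries. Ifi207, described in mouse macrophages as a regulator of cytokine transcription, had 1.93, 1.27 and 1.5 scaled FPKM in the lenvatinib libraries, against 2.07, 1.94 and 1.86 in the DMSO libraries, with overlap between the groups. Ifi205, first known from mouse macrophages, had 1.16, 1.91 and 1.69 in the lenvatinib libraries, against 0.945, 0.970 and 0.641 in the DMSO libraries, which lay apart with the lenvatinib libraries higher. Higher lenvatinib libraries with no overlap were seen in 18.9 percent of tested genes. Ifi204, a nuclear and cytosolic DNA sensor that signals through STING in mouse macrophages, had 0.831, 1.25 and 1.12 in the lenvatinib libraries, against 0.486, 1.01 and 0.634 in the DMSO libraries, with overlap. The log2 changes were −0.21 (SE 0.126) for Ifi207, 0.48 (SE 0.152) for Ifi205 and 0.28 (SE 0.158) for Ifi204. Ifi205 passed the filter on low values only through its lenvatinib libraries, and Ifi204 through 2 lenvatinib libraries and 1 DMSO library.

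Ifi204 and Ifi205 rested on few reads, 64 to 107 per lenvatinib library and 31 to 76 per DMSO library. With a pseudocount of 0.1 the log2 change of Ifi205 was 0.82 and that of Ifi204 0.56. The macrophage and dendritic cell markers, 13 genes, summed to 73.7 to 82.1 scaled FPKM in the lenvatinib libraries and 61.5 to 64.5 in the DMSO libraries. Of 10 tested genes 2 were higher and 0 lower, where 10.4 percent of all tested genes were called higher and 8.21 percent lower. The 2 were Lyz2, at 28.7 ± 2.74 in lenvatinib and 23.6 ± 1.39 in DMSO libraries, and Cd14, at 15.5 ± 1.29 and 11.6 ± 1.0 (limma adjusted p of 0.0342 for Lyz2 and 0.0117 for Cd14). The call of Lyz2 was kept in 10 of 18 alternatives and that of Cd14 in 18. Csf1r, the receptor for the macrophage growth factor, did not pass, with 1.83 ± 0.126 in lenvatinib and 1.73 ± 0.231 in DMSO libraries. None of the 13 was at 0 in all libraries. The part of these cells in the values of Ifi204 and Ifi205 was not tested.

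The members thus differed among themselves in how far they lay from DMSO, and the means of Ifi204 and Ifi205 lay above it. Ratios taken within a library, which no scaling can move, restate these same values and add no separate evidence. Ifi213 had the largest change among the members, so its ratios are a description. The ratio of Ifi213 to Mndal was 0.234, 0.222 and 0.204 in the lenvatinib libraries, against 0.345, 0.350 and 0.334 in the DMSO libraries. The ratio of Ifi213 to Aim2 was 1.29, 1.02 and 1.16 in the lenvatinib libraries, against 2.67, 2.52 and 2.71 in the DMSO libraries. In both ratios the groups lay apart. By contrast the ratio of Ifi209 to Mndal was 0.872 ± 0.0637 in lenvatinib and 0.804 ± 0.0686 in DMSO libraries, and that of Ifi203 to Mndal 0.546 ± 0.0464 and 0.517 ± 0.0285, in the same order of groups, both within the spread between replicates.

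**Figure D2:**
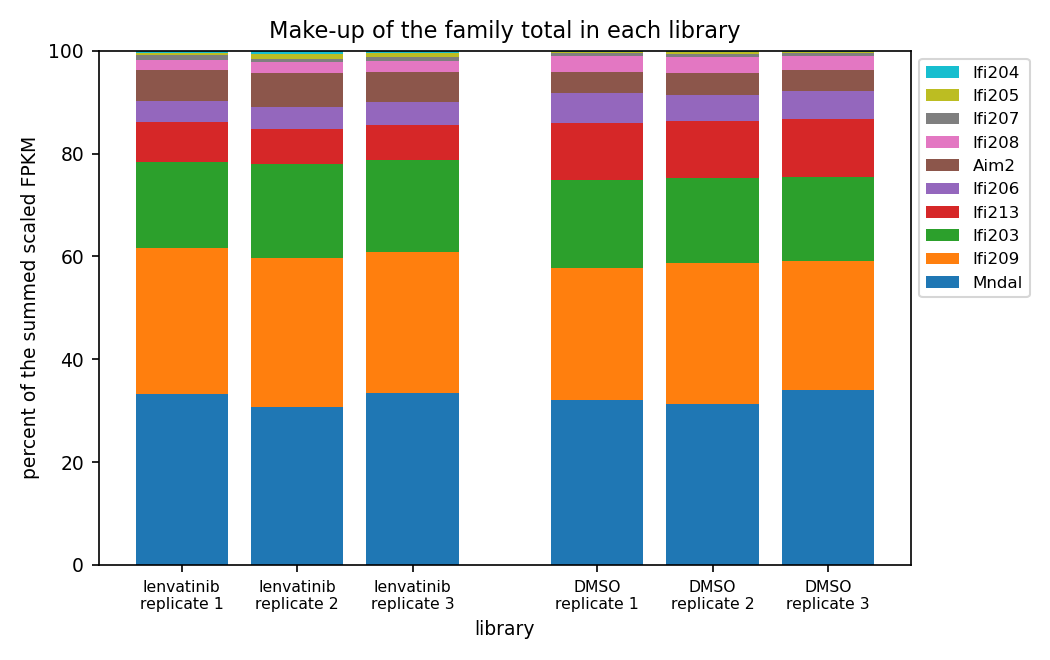
Percent of the summed scaled FPKM of the 10 members that each took, in the 3 lenvatinib libraries (left) and the 3 DMSO libraries (right). Ifi213 (red) took 7.14 ± 0.568 percent in lenvatinib and 11.1 ± 0.202 percent in DMSO libraries, and Aim2 (brown) 6.18 ± 0.427 and 4.22 ± 0.11 percent.

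The order of the levels was nearly the same in both groups. In the lenvatinib libraries it ran Mndal, Ifi209, Ifi203, Ifi213, Aim2, Ifi206, Ifi208, Ifi205, Ifi207 and Ifi204, and neighbours lay apart in every library except Ifi205 and Ifi207, which overlapped. In the DMSO libraries Ifi206 stood above Aim2 and Ifi207 above Ifi205, and the neighbours that overlapped were Ifi205 and Ifi204. Ifi206 averaged 8.6 in lenvatinib and 17.2 in DMSO libraries, and Aim2 12.7 in lenvatinib and 13.4 in DMSO libraries. Levels per length depend on the gene length that the authors used, which the FPKM steps gave as 9900 bases for Aim2, 8375 for Ifi213, 5507 for Ifi208 and 3562 for Ifi206.

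Some members share sequence, and reads that fit more than 1 gene could have been left out or split in the counting. Of the stretches of 100 bases in the GENCODE M21 transcripts, 16.9 percent of those of Ifi209 also occur in Ifi214, and 15 percent of those of Ifi205 and 10.7 percent of those of Ifi204 occur in another PYHIN gene. The share was 7.7 percent for Ifi206, 5.9 percent for Ifi208 and for Mndal, 3.3 percent for Ifi213, 1.1 percent for Ifi203, 0.3 percent for Ifi207 and 0 for Aim2. The read length is not given, and with stretches of 50 bases the shares were larger and in another order, 33.4 percent for Ifi209, 20.8 for Ifi208, 19.1 for Ifi204, 18.6 for Ifi205, 17.3 for Mndal, 15.8 for Ifi206, 15.6 for Ifi213, 4.5 for Ifi207, 3.9 for Ifi203 and 0 for Aim2. The values of all members but Aim2 carry this uncertainty.

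Among the PYHIN genes outside the 10, Ifi214 fell and Ifi211 did not pass the test. Ifi214 had 15.8 ± 1.18 scaled FPKM in lenvatinib and 25.6 ± 1.7 in DMSO libraries, with a log2 change of −0.67 and an SE of 0.0701 (limma adjusted p = 0.00022). It shares its promoter group with Ifi209, whose log2 change was −0.50. Ifi211, close to Ifi205 in sequence, had 0.628 ± 0.368 in lenvatinib and 1.03 ± 0.0489 in DMSO libraries (limma adjusted p = 0.201), and 56.9 percent of its 100-base stretches occur in another PYHIN gene. Ifi202b, which encodes an inhibitor of Aim2 without a pyrin domain, was listed at 0 in 5 of the 6 libraries. Set side by side, log2 changes ran from −1.21 to −0.92 in the group of Ifi206, Ifi208 and Ifi213, from −0.67 to −0.50 in Ifi209 and Ifi214, and from −0.62 to −0.54 in Ifi203 and Mndal. In the group of Ifi205, Ifi207 and Ifi211 they ran from −0.34 to 0.48. Some genes of a group also share transcript sequence. Of the 50-base stretches, 33.4 percent of those of Ifi209 occur in Ifi214 and 18.1 percent of those of Ifi208 in Ifi213. Mndal and Ifi207 shared most with genes outside their groups. The part of promoter likeness or of shared reads in these values was not tested.

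**Figure D3:**
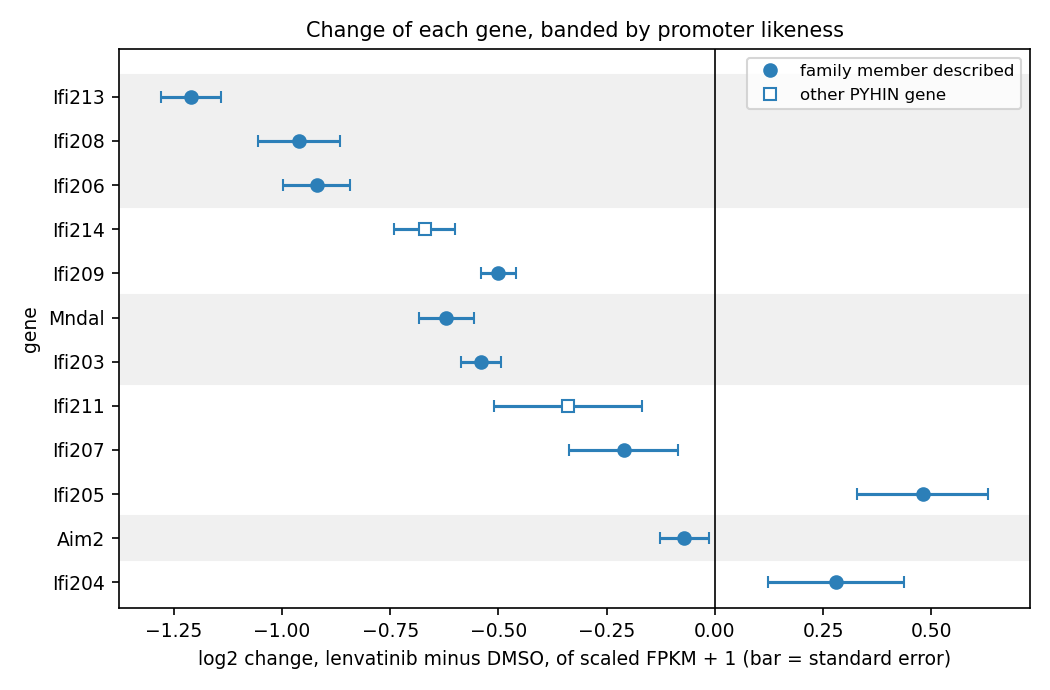
Log2 change (lenvatinib minus DMSO, of scaled FPKM + 1) with its standard error for the 10 members (filled circles) and for Ifi214 and Ifi211 (open squares), from 3 libraries a group. Shaded and white bands hold genes with like promoters. Aim2, which joined no group, and Ifi204, which had no promoter window to align, stand on their own. The band of Ifi213, Ifi208 and Ifi206 lies farthest below 0.

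Genes that interferon induces and that are no members were lower in the same libraries. This list, like the other gene lists, was chosen with earlier results of these data known, so its counts and p-values are a description. Of 29 tested genes in this list 28 fell and 0 rose, with a median log2 change of −0.74, against 8.21 percent called lower over all tested genes. Ifit3b and Phf11d, counted among the 28, passed the filter on low values only through their DMSO libraries, so nothing is read from their calls. With a mean filter of 5, 22 of the list were lower. The 4 of the list with the smallest p were Ifi27l2a, Slfn5, Ifit3 and Oas2. Ifi27l2a, a small interferon-induced membrane protein, fell to 96.9 ± 0.52 in lenvatinib, against 233 ± 21 in DMSO libraries, a log2 change of −1.26. Slfn5, a Schlafen family member, had 3.02, 2.84 and 3.42 in the lenvatinib libraries, against 9.69, 10.6 and 9.79 in the DMSO libraries, a log2 change of −1.43. Oas2, which makes the messenger that activates RNase L, fell to 5.43 ± 0.906 in lenvatinib, against 18.2 ± 0.865 in DMSO libraries, a log2 change of −1.59. The log2 change of Ifit3, which belongs to a family that binds viral RNA, was −1.50, and the limma adjusted p was between 2.45e-06 and 1.26e-05 for the 4 genes. With libraries scaled to the B cell markers 25 of the list were lower and 0 higher, against 164 and 5079 over all genes. Ifih1, an RNA sensor and the only one of the 29 that did not pass, had 1.36 ± 0.0407 in lenvatinib and 1.94 ± 0.463 in DMSO libraries (limma adjusted p = 0.153). Of the members, Ifi213, Ifi208 and Ifi206 lay below this list's median and the other 7 above it.

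Interferon receptors and the signal relay to this promoter element were partly lower. Of 17 tested genes 8 fell and 1 rose, with a median of −0.14, where 8.21 percent of all tested genes were called lower and 10.4 percent higher. With libraries scaled to the B cell markers 4 of the list were lower and 5 higher, against 164 and 5079 over all genes. Irf7, which amplifies the type I interferon response, fell to 36.7 ± 1.51 in lenvatinib, against 86.6 ± 2.62 in DMSO libraries (limma adjusted p = 9.97e-07). Stat2 and Irf9, which act in the type I interferon response, fell as well. Stat2 stood at 14.1 ± 0.422 in lenvatinib and 22.7 ± 0.74 in DMSO libraries, and Irf9 at 36.8 ± 1.22 and 50.1 ± 2.26 in the same order (limma adjusted p of 5.17e-05 for Stat2 and 0.000302 for Irf9). The gene that rose was Ifngr1, a chain of the interferon gamma receptor, with 154 ± 12.0 in lenvatinib and 86.4 ± 3.94 in DMSO libraries (limma adjusted p = 1.81e-05). The type I receptor chains did not pass, with Ifnar1 at 41.6 ± 1.66 in lenvatinib and 46.0 ± 1.22 in DMSO libraries, and Ifnar2 at 7.0 ± 0.642 and 6.87 ± 0.928 (limma adjusted p of 0.0604 for Ifnar1 and 0.885 for Ifnar2).

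The genes of the Aim2 inflammasome and of pyroptosis moved in both directions. Of 15 tested genes of the inflammasome and pyroptosis list 3 rose and 3 fell, with a median of −0.08. Over all tested genes 10.4 percent were called higher and 8.21 percent lower. With libraries scaled to the B cell markers 8 of the list were higher and 1 lower, against 5079 and 164 over all genes. The cytokine genes Il1a and Il1b rose, Il1a to 4.47 ± 0.427 in lenvatinib, against 1.44 ± 0.219 in DMSO libraries (limma adjusted p = 0.000129), and Il1b to 33.7 ± 3.23, against 21.4 ± 1.89 in DMSO libraries (limma adjusted p = 0.00068). Nlrp3, the sensor of another inflammasome, rose to 2.71 ± 0.251, against 1.49 ± 0.199 in DMSO libraries (limma adjusted p = 0.00779). Zbp1, a sensor of left-handed nucleic acid that is also in the interferon-inducible list, fell to 15.6 ± 1.16, against 28.3 ± 2.93 in DMSO libraries (limma adjusted p = 0.000158). The proteases Casp8 and Casp1 fell, Casp8 to 23.5 ± 1.05 in lenvatinib, against 29.3 ± 1.41 in DMSO libraries, and Casp1 to 21.9 ± 1.16, against 25.4 ± 1.05 in DMSO libraries (limma adjusted p of 0.00536 for Casp8 and 0.036 for Casp1). The call of Casp1 was lost with any 1 of the 6 libraries left out, which leaves 2 genes of the list lower, and in 6 of the 12 other alternatives. Those of Il1a and Nlrp3, which average under 5 scaled FPKM, were lost with a mean filter of 5. The neutrophil markers, 6 genes, summed to 11.7 to 16.9 in the lenvatinib libraries and 6.38 to 7.44 in the DMSO libraries. Of their 3 tested genes 2 were higher and 1 did not pass. The part of cells other than B cells in the values of this list was not tested. Pycard, the adaptor that binds Aim2, had 6.57 ± 0.779 in lenvatinib and 5.67 ± 0.797 in DMSO libraries (limma adjusted p = 0.29), and Gsdmd, the pore protein cut by Casp1, had 24.0 ± 0.265 and 25.9 ± 0.782 in the same order (limma adjusted p = 0.173).

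Of the list for cytosolic DNA sensing through STING 5 of 19 tested genes fell and 0 rose, with a median of −0.06. Over all tested genes 8.21 percent were called lower and 10.4 percent higher. With libraries scaled to the B cell markers 0 of the list were lower and 9 higher, against 164 and 5079 over all genes. The 5 that fell were Unc93b1, which carries Toll-like receptors to endosomes, Samhd1, a nucleotide hydrolase, the DNA receptor Tlr9, the helicase Dhx9 and the ubiquitin ligase Trim56. Of these, Unc93b1 and Tlr9 belong to endosomal and not to cytosolic sensing. Tbk1 and Irf3 of the list did not pass (limma adjusted p of 0.195 for Tbk1 and 0.797 for Irf3). Samhd1 stood at 62.5 ± 3.03 in lenvatinib and 77.4 ± 1.15 in DMSO libraries, and Tlr9 at 10.8 ± 0.548 and 13.6 ± 0.792 in the same order (limma adjusted p of 0.00104 for Samhd1 and 0.0124 for Tlr9). Unc93b1 stood at 158 ± 5.49 in lenvatinib and 186 ± 4.02 in DMSO libraries, and Dhx9 at 94.1 ± 3.11 and 104 ± 3.16 in the same order (limma adjusted p of 0.00111 for Unc93b1 and 0.0347 for Dhx9). Sting1 itself had 15 ± 1.35 in lenvatinib and 16.4 ± 1.21 in DMSO libraries (limma adjusted p = 0.36). Cgas, the sensor that makes the messenger for STING, was below the filter with 0.891 ± 0.0558 and 0.781 ± 0.175 in the same order. The number that fell was 3 in place of 5 without lenvatinib replicate 2 or 3, without DMSO replicate 2 or 3, without a filter, or without trend and robust moderation.

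**Figure D4:**
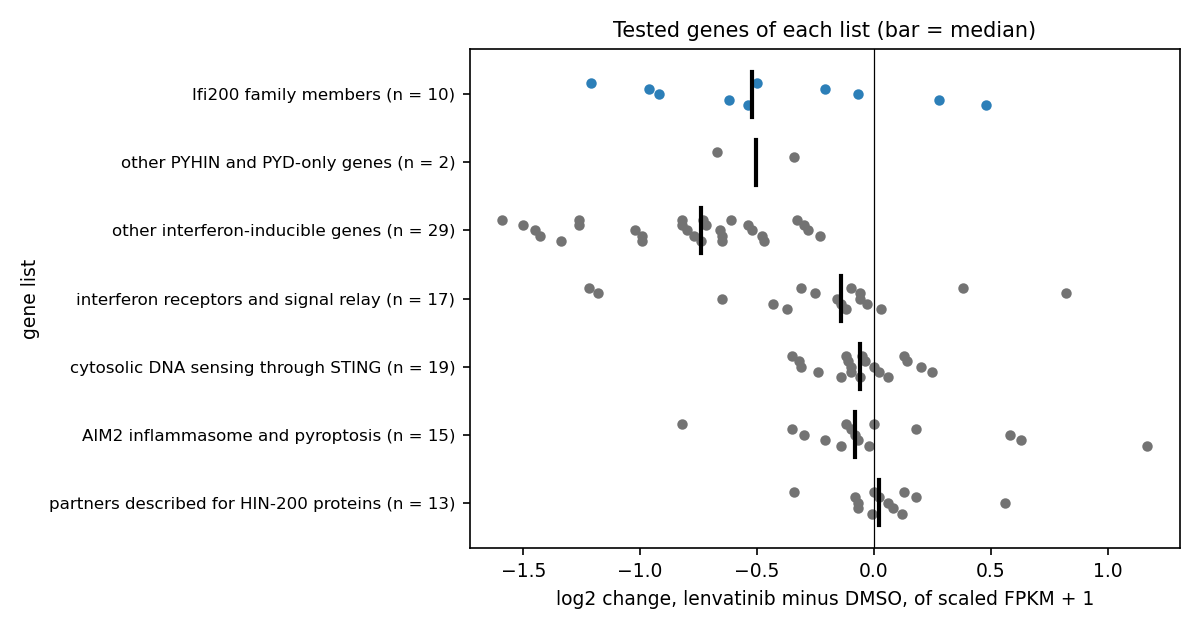
Log2 change (lenvatinib minus DMSO, of scaled FPKM + 1) of each tested gene in the family and in 6 further lists, with a bar at each median. The family's median of −0.52 lies between that of other interferon-inducible genes, −0.74, and those of the signal relay, −0.14, and of the DNA sensing and inflammasome lists, −0.06 and −0.08.

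Markers of B cells and of other cells also differed between the groups. Of 10 B cell markers 9 fell and 0 rose, where 8.21 percent of all tested genes were called lower and 10.4 percent higher. Their median log2 change was −0.26, with a summed level of 2140 to 2180 in the lenvatinib libraries and 2580 to 2620 in the DMSO libraries. T cell markers, 9 genes, summed to 131 to 134 in the lenvatinib libraries and 43.4 to 47.5 in the DMSO libraries, and 12 markers of natural killer and innate lymphoid cells to 104 to 111 and 24.5 to 25.8 in the same order. The 12 colon epithelial markers summed to 65.6 to 70.7 in the lenvatinib libraries and 14.5 to 15 in the DMSO libraries, and no marker of these lists was at 0 in all libraries. With libraries scaled to the B cell markers, an alternative chosen after seeing the data that raises the median of all tested genes to 0.23, over all genes 164 were called lower and 5079 higher, against 816 and 1038 otherwise. The log2 change of the 6 lower members was then −0.97 for Ifi213, −0.74 for Ifi208, −0.68 for Ifi206, −0.37 for Mndal, −0.29 for Ifi203 and −0.25 for Ifi209. The part of the other cells in the family's values was not tested.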

How the data were processed

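RNA was sequenced from 3 lenvatinib and 3 DMSO libraries. Per the labels' protocols, RNA was extracted with TRIzol and libraries were made with a VAHTS Universal V10 kit. The authors deposited FPKM values for 20591 genes, with reads counted by HTSeq on GRCm39, per the submitters' processing notes. The aligner, annotation, read length and use of strand are not given in the sources used here.

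FPKM was scaled by median-of-ratios factors. Genes that reached a scaled FPKM of 1 in 3 or more libraries were tested, 9937 in all. Values of log2(scaled FPKM + 1) were fitted in limma 3.58.1 (R 4.3.3) with treatment as the only term, with trend and robust moderation. Tests were two-sided, with Benjamini-Hochberg adjustment over all tested genes and a threshold of 0.05. The fit was tested on simulated data. Whole reads were worked out from the FPKM steps, to a tolerance of 1e-07, for 99.9 percent of genes with a value, and the lengths of 13 of 13 mitochondrial protein genes equalled the annotated ones. Chi-square per degree of freedom between replicates was 6.79 to 9.19.

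Promoter windows came from RefSeq (GRCm38.p6) and were aligned with Biopython 1.88, and shared stretches were counted in GENCODE M21 transcripts. The members and gene lists were chosen with earlier results of these data known. All members were named. From each list, the genes past the threshold in the minority direction were named or, with none, the 4 with the smallest p, and those not passing where they were 5 or fewer; other list genes were singled out after their values were seen. The 6 genes most like the family were those with the highest Pearson r, predicted genes left out. The 18 alternatives were other pseudocounts, filters, scalings and fits, limma-voom on the recovered reads, a replicate term and each library left out. Scaling to the B cell markers was added after seeing the data. The values of 1 gene of the signal relay list are not reported here.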

Additional observations from a re-analysis of the deposited data

How the results depend on the processing

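The members were chosen on this contrast, so their calls under the 18 alternatives, with 6 lower in each, are a description and no sign of stability. The members' median log2 change was −0.54 to −0.51 with 1 library left out, and −0.27 with libraries scaled to the B cell markers, chosen after seeing the data. That scaling called 5243 genes, 164 lower and 5079 higher, in place of 1854, 816 and 1038, and it called Aim2 and Ifi205 higher. Limma-voom on the recovered reads called 2499 genes, 1268 of them lower. With 1 library left out, 673 to 827 genes were called higher, 563 to 632 lower and 1236 to 1418 in all, the lowest number called higher being without lenvatinib replicate 2. The replicate numbers did not pair the libraries: same-numbered deviations from the group means correlated at −0.007, 0.006 and −0.005, and a replicate block called 1542 genes, 648 lower and 894 higher, with 6 members lower. Depth limits Ifi204 and Ifi205, with 31 reads in the thinnest library.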

Other observations

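Genes for proteins described as partners of HIN domain proteins, among them the retinoblastoma and p53 families, were looked at as a further list. Of 13 tested genes 1 rose and 1 fell, with a median log2 change of 0.02. Over all tested genes 10.4 percent were called higher and 8.21 percent lower, so nothing is read from these counts. Up to 3 of the list were higher under other settings. With libraries scaled to the B cell markers 8 were higher, against 5079 over all genes. Id2, an inhibitor of helix-loop-helix factors, rose to 66.0 ± 2.32 scaled FPKM in lenvatinib, against 44.4 ± 0.869 in DMSO libraries (limma adjusted p = 2.52e-05). Myc fell to 135 ± 0.989 in lenvatinib, against 171 ± 1.29 in DMSO libraries (limma adjusted p = 3.47e-05). Rb1 had 18.2 ± 0.68 in lenvatinib and 17.5 ± 0.776 in DMSO libraries (limma adjusted p = 0.564), and Trp53 had 39.3 ± 3.0 and 34.4 ± 0.423 in the same order (limma adjusted p = 0.056).

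The 6 genes outside the family whose levels over the 6 libraries were most like the family's mean standardized profile were Ms4a1, Rap1b, Plac8, Dennd11, Vcpip1 and Cd79a, with Pearson r of 0.9939 to 0.999. The 6 points fall into the 2 groups of libraries, and no p is given. An r of at least 0.99 was reached by 25 of 9397 genes outside the family, predicted genes left out. Within the family, Ifi205 and Ifi204 had r of −0.7659 and −0.5709 with this profile. Vcpip1 did not pass the threshold of the limma fit. Ms4a1, which encodes CD20, stood at 205 ± 3.12 in lenvatinib and 248 ± 7.27 in DMSO libraries. Plac8 stood at 80.2 ± 1.36 in lenvatinib and 118 ± 4.8 in DMSO libraries.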
